A study of Danio rerio with 24 samples.

Results

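The control adult ovaries without atrazine were the 0 ppb ovary samples of replicates 2 to 6 of a zebrafish (Danio rerio, AB wild-type) study. These were 5 of the 24 arrays of the study and 5 of its 6 control arrays. The replicate 1 control was left out because the scanner's spot grid was misplaced on its slide. The herbicide atrazine was given to the embryos at 0.3, 3 or 30 ppb, or not at all (0 ppb), from 1 to 72 h after fertilization. All fish, controls included, were then raised without the chemical and handled alike. By the sample labels ovaries of breeding females were collected at 5 to 6 months. The study's methods give a wider age range, with a later upper end, for the ovaries on the arrays. Each group held 6 arrays, 1 for each replicate number. By the files each replicate number had its own slide. The study's methods start biological replicates on different days but do not tie the array numbers to days, so a difference between fish and a difference between slides cannot be told apart. The signal of 1-colour Agilent microarrays was read for 14239 targets with a curated RefSeq transcript ID (NM), of which 13500 matched a current gene symbol. A level here is the log2 intensity of a target, averaged over its probes, minus the log2 of the 75th percentile intensity of that array, so a level of 0 lies at the 75th percentile of all spots and 1 unit is a 2-fold change.

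The fish ovary holds oocytes at all stages of growth, each wrapped in follicle cells. Growing oocytes store RNA and protein for the embryo and, in zebrafish, themselves make the zona pellucida (ZP) glycoproteins of the egg coat. Granulosa and theca cells around them make the steroid hormones, while the yolk precursor vitellogenin is made in the liver and reaches the oocyte through the blood. RNA of a whole ovary is a mixture from these cells, and fewer cells of a type and less RNA per cell cannot be told apart in it.

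The 5 control arrays had 75th percentile intensities of 1251 to 2245, and 68.8% to 87.2% of their 176026 spots were well above background, with no saturated spot. Levels of 2 control ovaries correlated at r = 0.966 to 0.984 across NM targets, which are not independent replicates. Elsewhere in the study, 3 arrays went against the ovary label, namely the 0.3 ppb arrays of replicates 3, 5 and 6. Their median egg coat gene levels were -1.39, -2.31 and -3.36 and their median brain gene levels 2.48, 2.74 and 2.72, whereas replicates 2 and 4 of that dose had egg coat medians of 7.65 and 7.77. Egg coat medians lay between 7.17 and 7.88 in replicates 2 to 6 at 3 and 30 ppb. The spot grid was also poor on the replicate 6 array at 3 ppb and the replicate 2 array at 30 ppb.

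The ovary label held for all 5 controls on the 4 genes taken as markers. In replicates 2 to 6 in that order, zp2.2, an egg coat glycoprotein gene, had levels of 7.65, 8.06, 8.03, 7.74 and 7.94. Its relative zp2.3 had 7.70, 8.11, 8.26, 7.83 and 8.06, and cldnd, a claudin gene of the egg, had 7.65, 8.02, 7.93, 7.87 and 7.90. These 3 genes stood among the 30 brightest NM targets, and their values spanned less than 1 unit over the 5 ovaries. The fourth, cyp11a1.1, encodes the side-chain cleavage enzyme that starts steroid synthesis and had 4.72, 4.89, 4.66, 3.97 and 4.71, high in every control and lowest in replicate 5. It ranked 492 of 14239.

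Most curated genes gave a signal in the control ovary. Of the 14239 NM targets, 12764 (89.6%) were well above background on all 5 arrays and 242 (1.70%) on none, while 51.8% of the other 74969 targets of the array were so on all 5. A target counted where any of its probes did. NM targets had a median of 3 probes, whereas the array held 128291 probes for 89208 targets in all. These shares thus also differ in the number of probes per target. Mean levels spanned 16.8 log2 units, from -8.56 to 8.20, with a median of -1.05, a lower quartile of -4.10 and an upper quartile of 1.58. A level also depends on the probe: the brightest and dimmest probes of 1 target lay a median of 2.54 apart over the 10366 detected targets with several probes. The order of targets below is thus an order of spot brightness, not of transcript number.

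Egg coat genes led that order. The brightest NM target was zp2.5, a ZP gene, with levels of 7.94, 8.41, 8.36, 8.08 and 8.22 in replicates 2 to 6. It was followed by zp2.6, with 7.86, 8.38, 8.45, 7.87 and 8.07. The values of these neighbours overlapped, and zp2.6 was above zp2.5 in replicate 4. Among the 30 brightest were also zp3 (7.73 ± 0.31, SD, n = 5), zp3.2 (7.85 ± 0.22) and zpax1 (7.87 ± 0.17), further members of the ZP family. A 2nd group of known function was the claudins, membrane proteins of tight junctions, with cldnd (7.87 ± 0.14) and cldng (7.64 ± 0.14). The rest included nme2b.1, a nucleoside diphosphate kinase (7.66 ± 0.19), crp2 (7.70 ± 0.24), and 19 targets with only a clone-based symbol or a transcript ID, led by si:ch211-251f6.6 (8.11 ± 0.28) and si:dkey-240e12.6 (8.06 ± 0.28).

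Each of the 30 brightest genes stayed within 1 unit over the 5 ovaries. The SD of the 30 over the 5 arrays was 0.140 to 0.315 with a median of 0.223, and none fell below 7.27 on any array. That median was below the 0.287 of all NM targets detected on all 5 arrays. It was above the 0.164 of the brightest quartile of these, so the 30 were not especially even for their level. Of the 30, 28 were lowest in replicate 2 and 25 highest in replicate 4, so they moved together between arrays by less than 1 unit. Together they held 8.90% to 11.6% of the summed NM signal of an array, and the brightest 1000 targets held 63.8% to 67.7%. The limit of the 30 was no gap, since si:dkeyp-98a7.4 stood inside it at 7.63 and LOC100301575 just outside at 7.59. With the brightest probe of each target in place of the mean of its probes, 17 of the 30 remained.

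**Figure D1:**
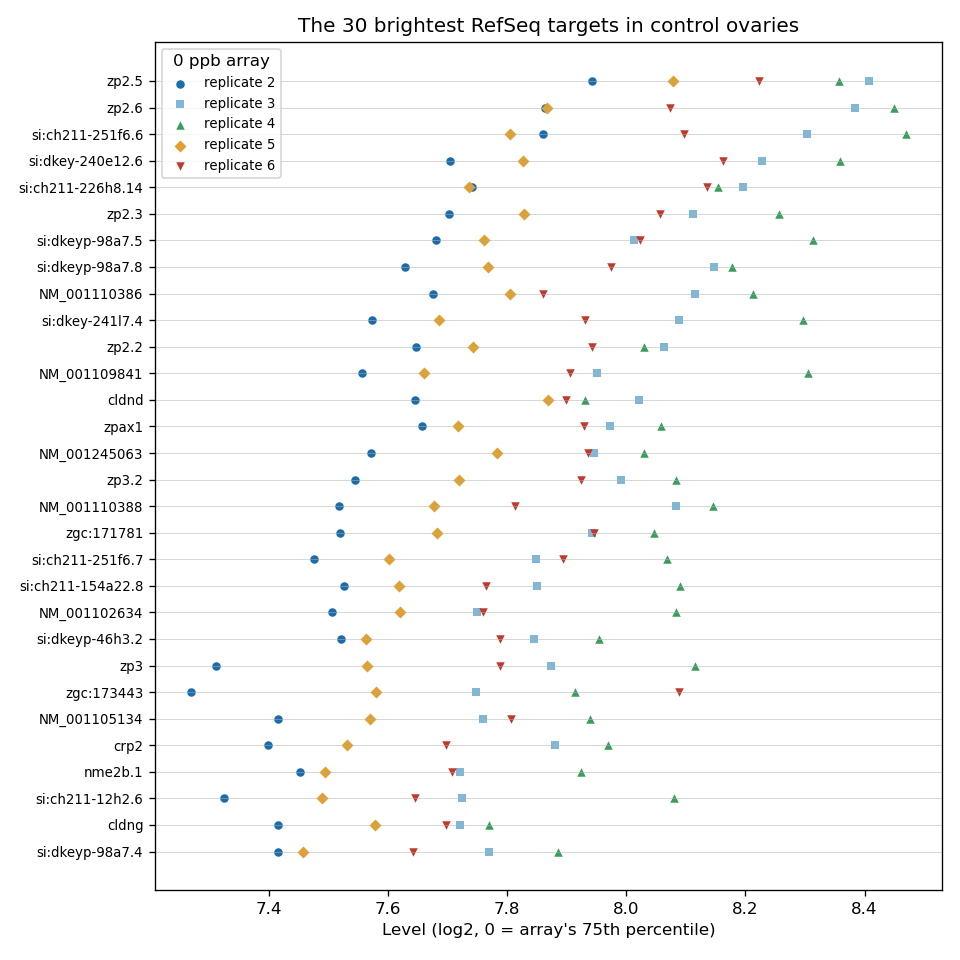
Level (log2, 0 = the array's 75th percentile) of the 30 brightest NM targets, with 1 mark for each of the 5 control arrays. Replicate 2 is lowest for 28 targets and replicate 4 highest for 25, and all values lie between 7.27 and 8.47.

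The known egg coat genes were bright as a list. All 15 measured targets were well above background on all 5 arrays, with a median level of 7.38 against -1.05 for all NM targets. Their medians in replicates 2 to 6 were 7.11, 7.34, 7.65, 7.19 and 7.43. The dimmest was at 4.72, 11 of the 15 were in the brightest 1% of NM targets, and no SD exceeded 0.306.

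Genes of the oocyte itself were bright too and had the smallest median SD of the 12 gene lists (0.133). Small SDs were common among bright targets, with a median of 0.164 in the brightest quartile of detected NM targets and 0.137 for the chaperonin subunits. All 36 oocyte targets, from 35 genes, were detected on all 5 arrays, at levels of 0.51 to 7.87 with a median of 4.09. The medians of the 5 arrays, 4.13, 4.19, 4.08, 4.10 and 4.13, were within 0.2 units of each other. Genes of stored maternal products spanned much of this range. High among them were zar1l at 7.35 and zar1 at 6.62, RNA-binding proteins of the egg. The maternal linker histone gene h1m stood at 7.15, the oogenesis-related gene org at 7.13, btg4, which acts in clearing maternal RNA, at 6.65, and the egg nucleoplasmin gene npm2b at 6.08. Its sister gene npm2a was at 3.11, and the RNA-binding protein gene cpeb1b at 3.70, with igf2bp3 lower still. Of genes of meiotic arrest and division, ccnb1, cyclin B1, was at 5.70, mos, a kinase that holds the egg in meiosis, at 5.46, and the mitotic kinase genes plk1 and aurka at 4.13 and 4.06.

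Regulators of early oocytes lay between 0.51 and 4.38 in the examples named here. The gene buc, which builds the Balbiani body that sets oocyte polarity, had 4.38. The oocyte-secreted growth factor genes bmp15 and gdf9 had 3.95 and 3.34, and bmp15 had an SD of only 0.04. The germ cell helicase gene ddx4 (vasa) stood at 1.56, the piRNA pathway gene piwil1 at 2.00 and the germ granule gene tdrd7a at 0.51.

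In 34 of the 36 oocyte targets the SD was under 0.5, and both others stood out in replicate 6. The germ cell RNA-binding protein gene dazl had 3.68, 3.86, 3.87, 3.67 and 2.51 in replicates 2 to 6, and its replicate 6 value lacked 1 of its 3 probes, the brightest, which was marked as an outlier there. The protease gene nots (nothepsin) had -1.34, 1.08, 1.57, 1.27 and 4.09, low in replicate 2 and high in replicate 6. Nothepsin is known from the liver of female zebrafish, though nots was placed in the oocyte list. Its lowest and highest arrays were also those of the liver genes described further on.

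Genes of the follicle cells were much dimmer. Of 22 targets 19 were detected on all 5 arrays and 3 on some, with a median level of -3.09 and only gsdf, a gonadal growth factor of the supporting cells, above 0 (1.54). Ovarian aromatase, cyp19a1a, which makes estradiol, had 0.08, -0.71, -0.19, -0.76 and -1.21 in replicates 2 to 6. The Wnt pathway activator gene rspo1 stood at -0.18 and inhibin alpha, inha, at -1.50. The receptors of the pituitary gonadotropins were low in every ovary, with fshr at -3.64 and lhcgr at -4.06, -3.65, -5.25, -3.36 and -2.83, lowest in replicate 4. The sex steroid receptor genes lay between -1.80 for ar and -3.95 for esr2a, with pgr at -3.11, esr2b at -3.07 and esr1 at -2.80. The 2 probes of esr2a stood at -7.47 and -0.43, and those of ar ran from -4.37 to 1.12. The order of these receptors thus depends on the probes. The transcription factor gene runx1 stood at -7.02 and was detected on 3 arrays.

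The steroid synthesis genes spread widely. All 10 targets were detected on all 5 arrays, with a median of -0.43 and 5 above 0. The highest mean, 4.64, was that of scarb1, the receptor that takes up cholesterol from lipoprotein, with cyp11a1.1 next at 4.59. In replicates 2 to 6 scarb1 had 4.98, 5.07, 3.10, 4.99 and 5.07. Replicate 4 was about 2 units below the rest on all 4 scarb1 probes. The gene cyp17a1, the enzyme on the way to androgens, was even in comparison, at 2.88 in replicate 2 and 2.00 to 2.32 in the others. In contrast hsd3b2 had 2.01, 0.25, 0.44, 0.17 and -1.69, high in replicate 2 and low in replicate 6. The gene star, which carries cholesterol into mitochondria, was at -2.54, -1.92, -2.77, -2.30 and -2.39.

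Genes of other cell types were mostly low. Over 14 stroma and vessel targets the median was -2.81, with the smooth muscle genes tagln at 2.78 and acta2 at 1.61 above 0, and the endothelial receptor gene kdrl at -5.22. Over 15 blood targets the median was -2.44. The beta-globin gene hbba1 was the only one of them above 0, and it varied, with 0.95, 3.55, -1.45, 1.72 and 1.66. It was highest in replicate 3 and lowest in replicate 4. Muscle targets (16, median -4.57), testis targets (11, median -4.19) and brain targets (15, median -5.25) all had mean levels below 0. Of 10 gut, kidney and skin targets, with a median of -3.55, only prss1, trypsin, was above 0 (1.20).

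Liver genes were the exception. All 16 liver targets were detected on all 5 arrays, 12 had a mean above 0, and their median was 1.46. Their medians in replicates 2 to 6 were -1.66, 1.90, 1.08, 1.80 and 4.92, and their summed level was 3.55, 7.41, 7.04, 7.38 and 9.63. All 16 were highest in replicate 6 and 15 were lowest in replicate 2, and each had an SD over 1 (1.31 to 2.70). The liver fatty acid binding protein gene fabp10a, for instance, had 0.13, 4.36, 3.26, 4.10 and 5.49, and the vitellogenin gene vtg2 had -0.71, 3.06, 3.14, 3.73 and 5.84.

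**Figure D2:**
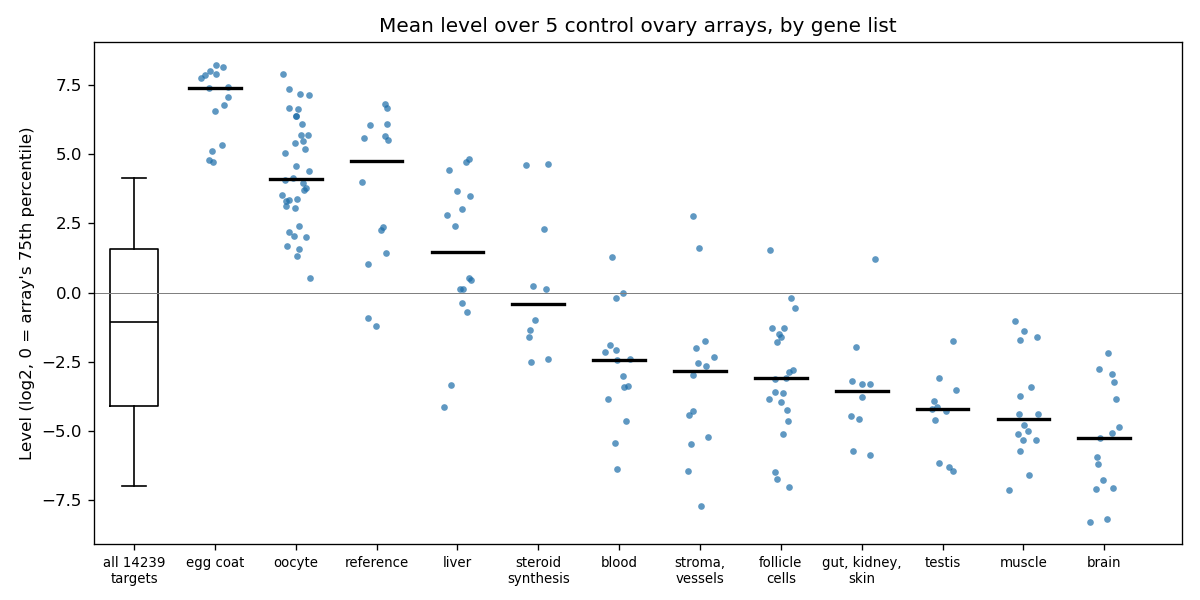
Mean level (log2) over the 5 control arrays of each gene in 12 lists, with a bar at the list's median, beside a box of all 14239 NM targets (median and quartiles, whiskers at the percentiles 5 and 95). Egg coat (median 7.38), oocyte (4.09) and reference genes (4.75) lie high, follicle cell genes lie at -3.09, and brain genes lie lowest at -5.25.

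Genes of general cell upkeep were mostly bright and even. The 14 reference targets had a median of 4.75, with gapdh, a glycolysis enzyme, at 6.82, actb1, beta-actin, at 5.63 and tbp, the TATA-box binding protein, at 3.98 with an SD of 0.06. Below 0 in this list were a target of b2m at -0.92 and tuba1b, an alpha-tubulin, at -1.22. Gene families were then read by symbol, and these families were chosen after their values were seen. All 48 proteasome subunit targets were detected on all 5 arrays (median level 2.98, median SD 0.155), as were all 41 mitochondrial complex I subunits (3.69), all 18 ATP synthase subunits (4.80), all 8 chaperonin subunits (3.68) and all 41 cyclin and division cycle genes (1.84). Their dimmest members stood at -7.21, -5.41, -2.01, 1.12 and -6.06 in that order. An SD over 1 was found in 2 proteasome and 1 complex I targets and in none of the other families named here.

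Sensory receptors were the largest group near background among the families read. Of 114 odorant receptor targets, 34 (29.8%) were well above background on all 5 arrays and 25 (21.9%) on none, against 89.6% and 1.70% of all NM targets. Trace amine-associated receptors gave 13 and 6 of 32. The gamma M crystallins of the lens gave 10 and 3 of 32, and the hox genes 28 and 2 of 48, with median levels of -7.04 and -6.10. Genes on none of the 5 arrays, again named after their values were seen, included the pituitary hormone genes prl (-8.41) and cga (-8.44), the neuropeptide gene kiss1 (-8.17), the pancreas genes ptf1a (-8.30) and gcga (-8.39), the muscle regulator myog (-7.78), the cytokine gene ifng1 (-7.57) and the neuronal gene elavl3 (-8.18). Values so close to background are bounds and have no order.

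Most genes differed little between control ovaries, and dim genes differed most. Over the 12764 NM targets detected on all 5 arrays the median SD was 0.287, with 3755 (29.4%) over 0.5, 1032 (8.09%) over 1 and 97 (0.76%) over 2. With these targets divided by level into quartiles of 3191 each, from dimmest to brightest the median SD was 0.672, 0.359, 0.216 and 0.164. Spots of the same probe repeated on 1 array had a median SD of 0.124, against 0.285 for the same 23658 probes between arrays, and the spread between arrays was the larger for 87.4% of them. Fish, slide and hybridization all enter the larger value and cannot be told apart.

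Dim levels were highest in replicates 5 and 6, which were scanned in 1 session. Their dimmest quartile of targets had median levels of -3.93 and -4.08, against -4.90, -4.84 and -5.00 in replicates 2, 3 and 4. Of these, replicate 2 was scanned in a different session from replicates 3 and 4. Session, slide and fish cannot be told apart here, and the part of the session was not tested. In the brightest quartile the 5 medians were within 0.2 units of each other. In replicates 5 and 6, 1697 and 1529 targets stood more than 1 unit above the median of the other 4 arrays. In the other 3 arrays 216 to 318 did. The same target could count in both replicates 5 and 6. With quantile normalization, which gives all arrays 1 distribution, the targets with an SD over 1 numbered 666, and the median SD of the dimmest quartile was 0.488.

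**Figure D3:**
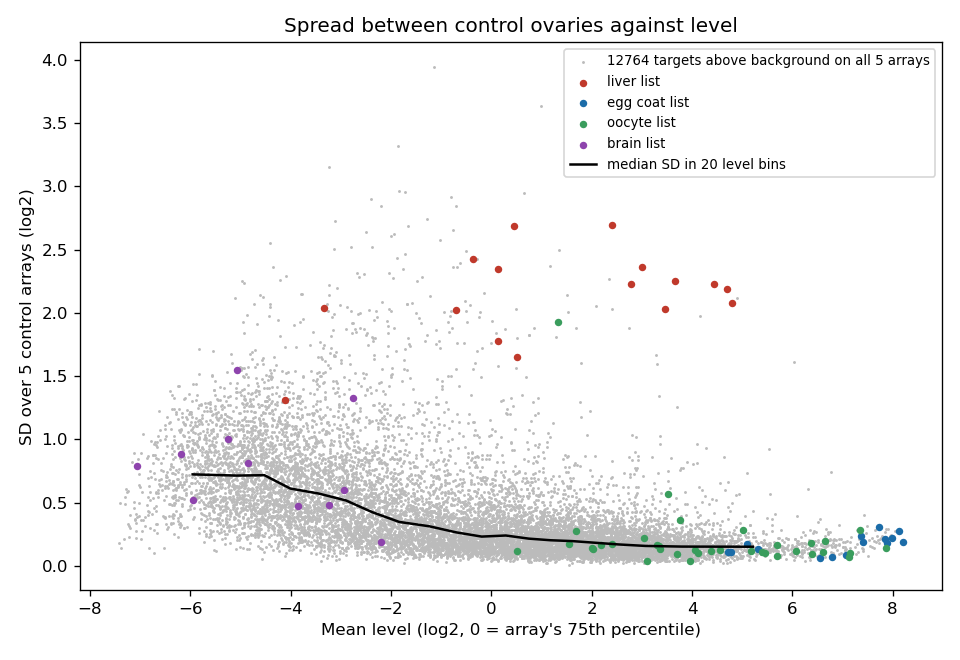
SD over the 5 control arrays (log2) against mean level (log2) for the 12764 NM targets detected on all 5. Targets of the liver, egg coat, oocyte and brain lists are marked, and a line gives the median SD by level. The spread falls from a median of 0.672 in the dimmest quartile to 0.164 in the brightest.

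The 30 most variable genes were mostly not the dim ones. Their SDs ran from 2.42 to 3.94, only 2 were in the dimmest quartile of levels and 1 in the brightest. They were chosen by this spread, so it is given as a description. They fell into a set that followed the liver genes and a set with separate, often 2-level patterns.

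Genes of secreted liver proteins led the first set. The gene serpina1, whose product is the protease inhibitor alpha-1-antitrypsin, had -3.21, 0.75, 0.17, 0.22 and 4.34 in replicates 2 to 6. The lipoprotein gene apoa2 had -1.62 in replicate 2, 1.99 to 3.34 in replicates 3 to 5 and 5.85 in replicate 6. In both, replicate 2 was lowest, replicate 6 highest, and replicates 3 to 5 lay between.

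The lowest and highest arrays were the same for serpina7, for thyroxine-binding globulin (-6.32, -2.04, -3.54, -1.74 and 1.64), for apoc4 (-5.74, -1.65, -2.60, -1.55 and 1.53) and apom (-3.75 in replicate 2 and 3.24 in replicate 6), both of lipoproteins, and for ahsg2, a fetuin (-6.33, -3.04, -4.39, -2.36 and 0.43). They were also the same for the ribonuclease-like gene rnasel3 (-5.96, -2.95, -1.56, -3.30 and 1.27) and for pnp4b, a purine nucleoside phosphorylase (-3.88, 0.15, -0.77, 0.16 and 2.87). In all, 14 of the 30 were lowest in replicate 2 and highest in replicate 6, against 821 (6.43%) of the detected targets. Replicate 2 had the lowest and replicate 6 the highest summed level of the liver list, as given above. The liver markers thus moved with this set, and serpina1 and apoa2 are themselves in the list. The part of the liver markers in this set was not tested. The least variable of the 30 was pnp4b, and fgg, a fibrinogen gene, stood just outside at an SD of 2.42.

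The other 16 did not share an order. The largest SD, 3.94, was that of NM_001033596, which has 1 probe and no current symbol, with 3.26, -4.31, 3.06, -3.88 and -3.88. Its values formed 2 levels about 7 units apart, high in replicates 2 and 4 and low in the others. The gene spata6l, of 1 probe, was high in the middle replicates, with -3.31, 3.71, 3.92, 3.26 and -2.65, and bcas2, a spliceosome component, also of 1 probe, was high only in replicate 3, with -2.50, 1.97, -5.37, -4.85 and -5.44.

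Several were low in 1 or 2 ovaries only. The palmitoyltransferase gene zdhhc16a had -7.79, -0.27, -0.19, -0.62 and -0.45, low in replicate 2 on both of its probes. The potassium channel gene kcnn1b was low in replicate 3, with 1.56, -4.40, 0.80, 2.84 and 2.51. The glucosidase gene gba3 was low in replicate 4, with 0.85, 0.08, -5.96, -0.04 and 1.02.

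In replicate 4 yjefn3 was low as well, with 0.86, 0.73, -5.75, -0.05 and 0.73. The transcript zgc:158432 was low in replicates 4 and 6 on all 3 of its probes, with -0.01, 0.36, -5.87, 0.50 and -4.14. The gene kctd12b was low in replicates 3 and 4, with -0.16, -4.25, -6.18, -0.23 and -0.14. The insulin receptor substrate gene irs2a had -6.93, -1.40, -6.32, -1.98 and -5.45, with only replicates 3 and 5 above -2. No array was the low one for all of these genes.

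**Figure D4:**
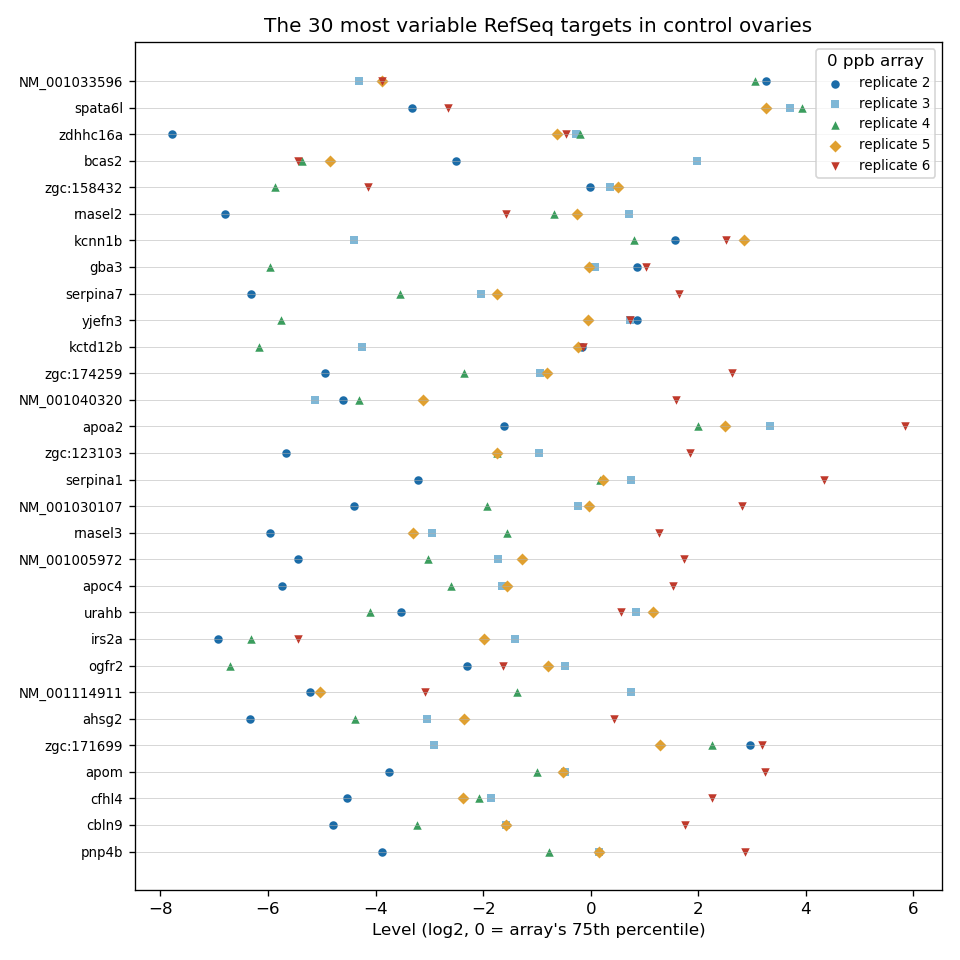
Level (log2) of the 30 most variable NM targets on each of the 5 control arrays. Genes such as apoa2 and serpina1 are lowest in replicate 2 and highest in replicate 6, while NM_001033596, zdhhc16a and kcnn1b sit at 2 separate levels.

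Probes of a target mostly shared its spread. The 30 were ranked by the spread of the probe average on these same arrays, which favours such agreement, so it is a description only. Of the 30 targets 18 had several probes, and in 16 of these all probes shared the highest and the lowest array. None of the 68 probes of the 30 targets lacked a value, and each spanned at least 3.68 units over the 5 arrays. Not all of these probes were well above background on all 5 arrays. For instance 1 probe of zdhhc16a was so on 4 arrays, 1 of kctd12b on 3 and 1 of irs2a on 2. Their lowest values are bounds. A single probe was all that 12 of the 30 had, against 18.8% of the detected targets. Without replicate 2 or without replicate 6, 16 of the 30 stayed among the most variable, and with normexp background correction 17. For zdhhc16a the SD without replicate 2 was 0.191, for gba3 0.535 and for yjefn3 0.415 without replicate 4, and for kcnn1b 0.926 without replicate 3.

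The same genes also varied in ovaries that were not used to choose them, the 3 and 30 ppb samples of replicates 2 to 6. At 3 ppb the 30 genes had a median SD of 3.53 against 0.347 for all detected targets, and 24 of the 29 with enough values were above the 90th percentile of all. At 30 ppb their median SD was 3.23 against 0.340, and 27 of 30 were above that percentile. Without the poor-grid arrays these were 26 of 30 and 27 of 30. The high ovaries were not those of the same replicate number in every group. In replicates 2 to 6 at 3 ppb, NM_001033596 had -2.66, -4.99, 2.75, -4.12 and -3.82, high in replicate 4 alone. The 30 ppb values were 3.08, -4.24, -3.93, 3.03 and -5.03, high in replicates 2 and 5. On the poor-grid replicate 6 array at 3 ppb, genes dim in controls, such as lum (-7.71) and desma (-6.43), stood at -4.00 and -3.99. Low values on that array may thus be bounds.

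In zdhhc16a the low level returned at 3 ppb in replicates 3 and 4, with 0.07, -6.64, -6.65, -0.62 and -0.08, whereas at 30 ppb no ovary was low, with 0.33, 0.25, 0.04, -0.63 and 0.70. The gene kcnn1b had 1.48, 1.84, -3.86, -3.14 and 1.80 at the lower of these doses and -3.43, 0.62, 2.02, -3.13 and 1.48 at the higher. In these groups it was low in replicates 4 and 5 and in replicates 2 and 5, not in replicate 3.

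The liver order differed as well. For apoa2 the 3 ppb ovaries gave 6.53, -5.98, -5.63, 5.30 and -3.43, and those of 30 ppb 5.39, -4.79, 4.77, -4.36 and 0.39. Both sets spanned more than 10 units, wider than the controls. On the same arrays the liver list had medians of 5.54, -4.64, -4.20, 4.01 and -3.32 and of 4.74, -3.66, 4.08, -3.15 and -0.60 in turn. These were high and low where apoa2, itself a member of the list, was. The part of the liver list in these values was not tested. At 3 ppb the low replicate 6 values came from the poor-grid array and may be bounds. Below the 90th percentile of spread at 3 ppb (1.07) were gba3 (SD 0.82), yjefn3 (0.68) and zgc:171699 (0.60). At 30 ppb these had 2.15, 1.58 and 2.65. NM_001040320 (1.00) and ogfr2 (0.84) were also below it. At 30 ppb they stayed below that dose's 90th percentile of 0.98, with 0.49 and 0.81, as did zdhhc16a (0.49). All of these SDs were above the median of all detected targets.

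**Figure D5:**
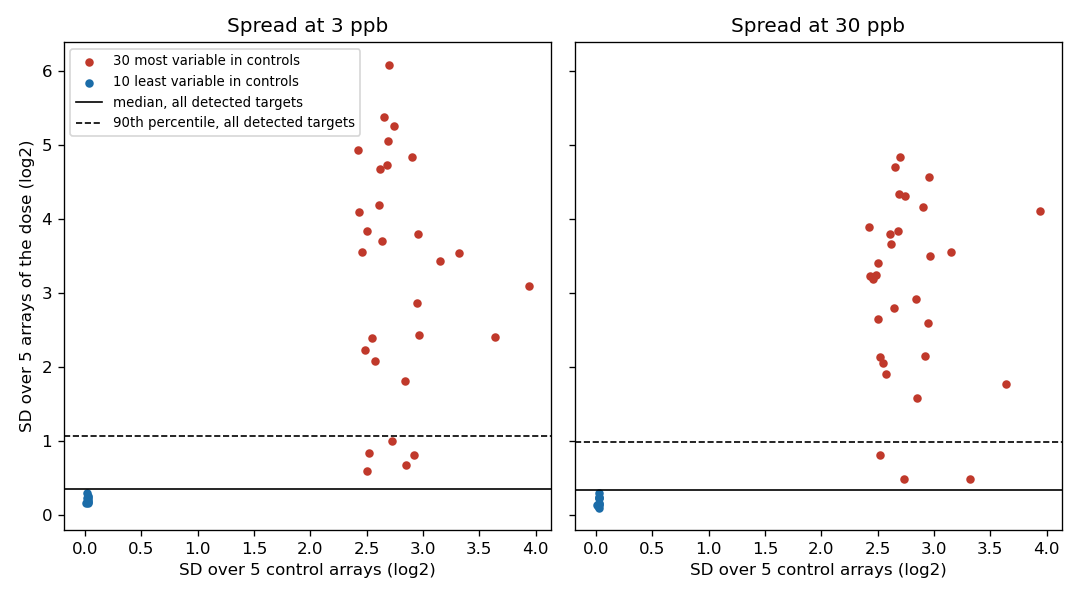
SD over the 5 arrays of 3 ppb (left) and 30 ppb (right) against SD over the 5 control arrays (both log2), for the 30 most and the 10 least variable control targets with values. Lines mark the median (0.347 and 0.340) and the 90th percentile of all detected targets, and 24 of 29 and 27 of 30 of the most variable lie above the latter.

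Differences by replicate number, and so by slide, were tested on the same 10 arrays of 3 and 30 ppb with limma's moderated F, adjusted by Benjamini-Hochberg over all targets tested. Over the array, 17490 of 65701 targets (26.6%) passed, but 0 (0.0%) did with quantile normalization, where 12302 had an unadjusted p under 0.05. Of the NM targets detected on all 5 controls 916 of 12666 (7.23%) passed. Of the 29 tested among the most variable 0 passed, with adjusted p-values from 0.0748 for apom to 0.721, and of the 29 tested among the brightest 0 did.

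At the other end, some genes had nearly the same value in every control ovary. The smallest SD was that of lnx2b, a ubiquitin ligase gene, with 1.55, 1.54, 1.55, 1.53 and 1.53. Below an SD of 0.027 were also yipf4, zcchc8, oxct1a, llgl2, wdr46, kdelr2b, psmb6, atp5f1d and hemk1. At 3 and 30 ppb these 10 had median SDs of 0.205 and 0.157, and none was above the median of all detected targets, though without the poor-grid arrays 1 was at 30 ppb. They were chosen by this spread out of 12764 targets, and which 10 came first changed with the setting, with 2 of 10 shared under quantile normalization.

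The pattern most like the most variable target, NM_001033596, was that of e2f3 (Pearson r = 0.999 over the 5 control arrays), then usf1l (0.998) and sh3gl1b (0.993). Their own spreads were far smaller, with SDs of 0.209, 0.945 and 0.290. Over 5 arrays and 12764 candidates such values describe likeness only.

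Genes bright in the control ovary were bright at 3 and 30 ppb too. Fold changes of the 30 brightest on the log2 scale were -0.11 to 0.34 at 3 ppb and 0.01 to 0.23 at 30 ppb. The marker zp2.2 had means of 8.06 and 8.01 there against 7.88 in controls. In limma's moderated test over 72750 targets, a call was a Benjamini-Hochberg adjusted p below 0.05 and at least a 1.5-fold change. By it 0 targets (0.0%) were called at 3 ppb and 0 (0.0%) at 30 ppb. With an unadjusted p under 0.05 in that test and at least a 1.5-fold change there were 512 at 3 ppb and 344 at 30 ppb. That fit shared its variance with the 0.3 ppb arrays, including those of replicates 3, 5 and 6 that were unlike ovary. Without those arrays the unadjusted counts were 1332 and 893. They were 2056 and 1371 with replicate number as a block, and 1476 and 1093 with only the 2 groups compared. The lowest, 139 and 107, came with replicate 1 added. By the adjusted p 0 targets were called at 3 and 30 ppb in each of these fits. No target of the brightest, most variable or least variable sets was called at 3 or 30 ppb. For the 30 brightest no call was possible, since all their fold changes were below 1.5-fold.

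At 0.3 ppb the means differed more, but the group held the 3 arrays without ovary levels. Here 3 targets (0.00412%) were called, all lower, and 0 of the 30 brightest (lowest adjusted p 0.0568 in limma's test). With the replicate block, that is the slide, 19835 (27.3%) were called, among them 28 of the 30 brightest, 0 of the 30 most variable and 5 of the 10 least variable. Without the arrays of replicates 3, 5 and 6, 0 were called. In that fit 2658 had an unadjusted p under 0.05 in limma's test and at least a 1.5-fold change. In replicates 2 and 4 of this dose the markers were near control level, with zp2.2 at 8.09 and 8.29 and cyp11a1.1 at 4.84 and 4.82, while on the others zp2.2 had -1.38, -2.10 and -2.50. Of the brightest 30, nme2b.1 alone stood above 6 on all 3 of those arrays, with 8.42, 6.24 and 6.31.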

How the data were processed

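The authors deposited scanner output of 24 1-colour Agilent zebrafish arrays, 1 file per ovary sample, read with Agilent Feature Extraction 11.5. The deposited intensity is its background-subtracted, processed signal, with no normalization between arrays. One control array, of replicate 6, lacked the multiplicative detrending that the other 4 had. The authors' later GeneSpring steps are not in these values. Groups and replicate numbers came from the sample labels.

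Spots marked as outliers were dropped. The log2 intensity minus the log2 of the array's 75th percentile was averaged over spots of a probe, then over probes of a target. Intensities under 1 were set to 1. A target was well above background where any probe was. Symbols came from RefSeq by transcript ID. Dose tests used limma 3.58.1 in R 4.3.3 on 20 arrays (replicates 2 to 6), with targets whose probes were well above background on at least 5 arrays, and were first tested on simulated data. The simulation drew all arrays around the control means, so it did not cover the 3 arrays unlike ovary. P-values measure only the spread between these samples. Replicate numbers were used as a block because the files put each number on its own slide, and the methods tie no number to a start day. Same-numbered control, 3 and 30 ppb samples deviated together at r over 0.1 in 14 of 15 pairs (median 0.413). Of 60 other pairs 23 did (median -0.317). Deviations were taken from the group means, so these medians are not independent of each other. A fit with the replicate block was the alternative. The number of arrays limits the precision.

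Named genes were the 4 markers, the 30 brightest, 30 most variable and 10 least variable NM targets, examples of 12 gene lists, and the 3 targets closest in pattern. Members and lists were chosen with earlier results of these data known. Alternatives were quantile and normexp normalization, other percentiles, probe summaries, filters, floors and outlier handling, replicate 1 added, single replicates left out and 2-group fits.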

Additional observations from a re-analysis of the deposited data

Results flagged for a closer look

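The items tested were 159, namely named targets and the medians of the gene lists. In 11 of them (6.92%), all single targets, 1 control array stood apart from the other 4 by Dixon's test at the 95% level. Chance alone gives about 1 in 20. In 10 of the 11 the array apart was low.

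The 4 from the most variable genes were zdhhc16a at -7.79 in replicate 2 (the others -0.62 to -0.19), kcnn1b at -4.40 in replicate 3 (0.80 to 2.84), gba3 at -5.96 in replicate 4 (-0.04 to 1.02) and yjefn3 at -5.75 in replicate 4 (-0.05 to 0.86). Their range had chosen them. The least variable gene wdr46 was high in replicate 6 at 3.08, a few hundredths above the others (3.03 to 3.04).

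Of oocyte genes, dazl was at 2.51 in replicate 6 (3.67 to 3.87), where 1 of its probes was missing, and tdrd7a at 0.30 in replicate 4 (0.52 to 0.60). Of steroid synthesis genes, cyp11a1.1 was at 3.97 in replicate 5 (4.66 to 4.89) and scarb1 at 3.10 in replicate 4 (4.98 to 5.07). Of reference genes, tuba1b was at -2.21 in replicate 5 (-1.07 to -0.88) and actb1 at 5.35 in replicate 2 (5.66 to 5.75).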

How the results depend on the processing

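Of the 30 brightest, 17 were shared with the brightest probe of each target and 29 to 30 when single replicates were left out. Of the 30 most variable, 17 were shared under normexp, 18 with a floor in place of the detection filter on all 5 arrays, and 16 to 27 with single replicates left out. Of the 10 least variable, 2 were shared under quantile normalization, 0 with the 75th percentile over detected probes, 1 each under normexp, the median over probes and the brightest probe, and 2 to 4 with single replicates left out. Targets with an SD over 1 numbered 666 under quantile normalization, 306 under normexp and 863 to 1166 with single replicates left out, and quantile normalization moved the median of the detected targets by 0.48. With single replicates left out, detected targets were 12765 to 13065, those on no array 250 to 363, and the median SD 0.274 to 0.293. Above the 90th percentile of spread were 23 to 26 of the most variable at 3 ppb and 25 to 27 at 30 ppb, with single replicates of these doses left out.

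With replicate 1 added, detected targets were 6846, the median SD 1.15, targets with an SD over 1 3822, and 0 of the most and 0 of the least variable were shared. The replicate effect was 0 under quantile normalization, 2629 under normexp and 6244 to 17674 with single replicates left out, 6244 being without replicate 5.

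Calls at 0.3 ppb were 19835 with the replicate block, 20340 with quantile normalization, 29832 with normexp, 9451 with probes well above background on all arrays, 1 with only the 2 groups fitted, 0 with replicate 1 added, and 0 without the 3 arrays unlike ovary. Without replicate 2 they were 21243, without replicate 4 20326, without replicate 3 1, and without replicate 5 or 6 0. At 30 ppb 1 target was called with probes above background on all arrays, and all other settings gave 0 at 3 and 30 ppb, the replicate block included. The cause of these shifts was not tested. Over the 30 brightest targets and cyp11a1.1, under 13 alternatives each, 298 mean levels moved by less than the SD between replicates and 105 by more. For the 30 most variable, 380 SDs under the alternatives stayed within 1.5 times their value and 23 did not. Leaving out the poor-grid arrays, the 3 arrays unlike ovary or incomplete probes was chosen after seeing the data, as was reading the spread at 3 and 30 ppb under other normalizations.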
